A study of Mus musculus with 4 samples.

Results

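Expression of 10 endothelial and blood-brain barrier genes was examined in the granule-cell-enriched fraction (GCE) that was dissected from the vermis of the cerebellum. The genes were Cldn5, Cdh5, Pecam1, Slc2a1, Slco1a4, Abcb1a, Flt1, Kdr, Tek and Ly6c1. They were matched by NCBI gene number and are 10 of the 24532 gene numbers in the deposited tables. Each had 1 entry in every table. The study compared adult male Kdm3b+/- mice with their wild-type (WT) littermates by bulk RNA sequencing, with 2 mice of each genotype and 1 library per mouse. Kdm3b encodes a demethylase of histone H3 lysine 9, and the mutant allele carries the pGT0lxf gene trap vector from the single ES cell line YTC406, so it is present in all cells and is not restricted to vessels. The mutant line had been backcrossed to C57Bl/6N and later crossed to C57Bl/6J mice, and the labels give no treatment. The labels name the tissue as cerebellum only, and the hand dissection of vermal slices into GCE tissue is given by the study's methods.

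The endothelium lines all blood vessels, and in the brain its cells form the blood-brain barrier. Tight junctions seal the space between neighbouring cells, and transporters in the cell membrane then carry nutrients inward and pump drugs and other foreign compounds back into the blood. Growth factors of the VEGF and angiopoietin families act on receptors of the same cells to control vessel growth and stability, and Wnt signals from the neural tissue maintain the barrier. Endothelial cells are a minor cell population in the granular layer of the cerebellum, so their genes are read here within RNA that comes mostly from neurons and glia.

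The libraries held between 4.92 and 6.69 gigabases of aligned sequence, computed from the coverage and FPKM values, and 17572 to 17991 genes had a TPM (a level per length of transcript, scaled to the same total in each library) above 0. Of the targeted gene, the TPM was 9.10 and 11 for WT against 8.30 and 7.90 for Kdm3b+/-, with a log2 fold change of -0.27 ± 0.17 (SE, n = 2 per group) that was not significant (limma adjusted p = 0.424). Both Kdm3b+/- libraries were below both WT libraries for Kdm3b. At the protein level, the study reported a significant reduction of Kdm3b in immunoblots of the vermis and the flocculus of the mutants. The summed TPM of 10 granule cell markers was between 3896 and 4580 in every library. The summed TPM of 10 Purkinje cell markers was 1875 in WT mouse 1 and 770 to 1052 in the other 3 libraries, so WT mouse 1 stood apart in these markers.

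All 10 genes had a TPM above 0 in every library, and their mean TPM spanned 267-fold. Ly6c1 and Slc2a1 were the highest and exchanged places between libraries. Cldn5 came next and Slco1a4 after it in each of the 4 libraries. Pecam1, Abcb1a and Flt1 took the fifth to seventh places in an order that changed from mouse to mouse, so that these 3 genes could not be ranked among themselves. Tek, Kdr and Cdh5 followed in that order in every library. Cdh5, at a mean TPM of 0.641, was under the minimum mean of 1 that was set for testing, and the other 9 genes were tested. The summed TPM of the 10 genes was 484.8 and 475.7 in WT and 433.6 and 437.7 in Kdm3b+/- animals. The genotype groups did not overlap in this sum, of which Ly6c1 and Slc2a1 made up the greater part. Slc2a1 was itself lower in both Kdm3b+/- mice, at 136 and 139 against 165 and 196 in WT. Ly6c1 overlapped, at 187 and 157 against 197 and 144 in WT. A difference in the sum is therefore not one of all 10 genes.

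**Figure D1:**
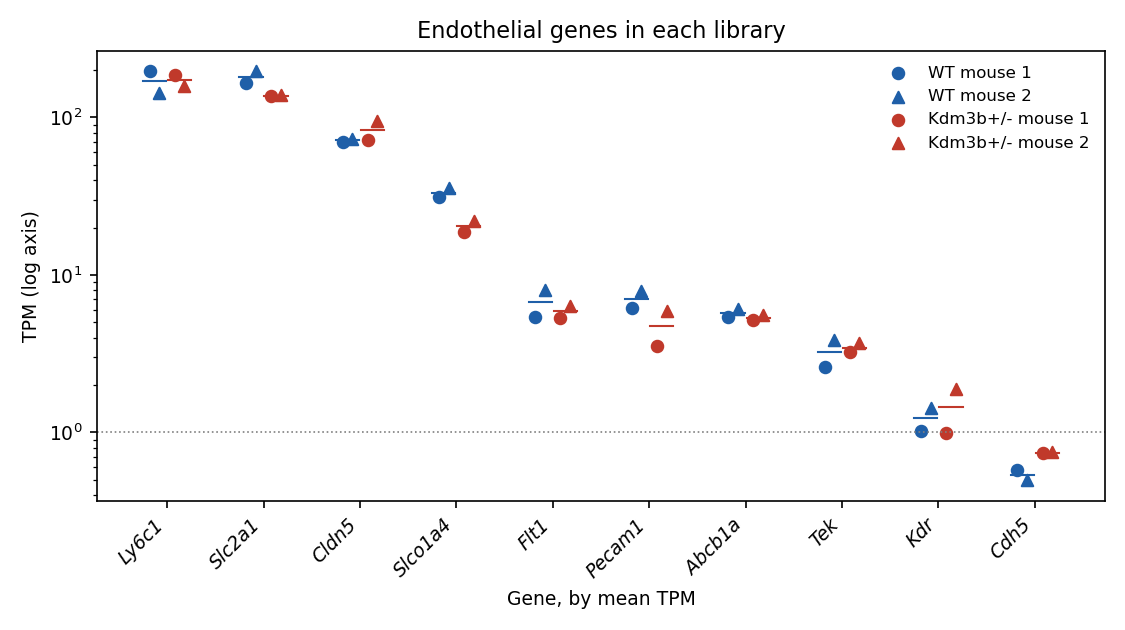
TPM (log axis) of the 10 endothelial genes in each of the 4 libraries, ordered by mean TPM, with short lines at the group means and a dotted line at a TPM of 1. For Slco1a4, Slc2a1 and Pecam1 both Kdm3b+/- mice (red) are below both WT mice (blue), for Cdh5 both are above them, and for the other 6 genes the genotypes overlap.

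None of the 9 tested genes was a differentially expressed (DEX) gene, defined by an adjusted p under 0.05 over all tested genes and a fold change over 1.2. Among all 13652 tested genes 63 were DEX (0.461%), 16 of them higher (0.117%) and 47 lower (0.344%) in Kdm3b+/- mice. The number of DEX genes among all genes was 21 without WT mouse 1, 28 without WT mouse 2, 121 without Kdm3b+/- mouse 1 and 188 without Kdm3b+/- mouse 2, and the endothelial genes held none in any of these fits. The split between higher and lower DEX genes was 23 to 38 after scaling each library by its median ratio and 36 to 53 after a correction for transcript length and GC content. In total, 5 of the 9 tested endothelial genes had a lower and 4 a higher mean in Kdm3b+/- mice, and their median log2 fold change was -0.09 against -0.07 for all tested genes.

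The 3 transporters carry glucose, organic anions and drugs across the barrier, and Slco1a4 and Slc2a1 had lower values in both Kdm3b+/- mice than in both WT mice. Slco1a4 (chr6:141805440-141856171, minus strand, GRCm38) encodes Oatp1a4, which transports organic anions such as steroid conjugates and statins. Its TPM was 31.1 and 35.6 for the WT pair and 18.8 and 22.0 for the Kdm3b+/- pair. The means were 33.3 ± 3.18 and 20.4 ± 2.31 (SD, n = 2 per group), a ratio of 0.612, and the difference between genotypes was larger than the gap between the mice of either group. Its log2 fold change of -0.68 ± 0.16 (SE) had a 95% confidence interval of -1.04 to -0.33 and an unadjusted p of 0.00185 in limma, and it did not pass the adjustment over all genes (adjusted p = 0.117). The value lay between -0.79 and -0.57 when any single library was left out, and was therefore as large without WT mouse 1 as with it. In bulk tissue, fewer endothelial cells and less RNA per cell cannot be told apart for this gene or for any other gene described here.

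Slc2a1 (chr4:119108745-119137329, plus strand) encodes the glucose transporter Glut1, through which the brain takes up most of its glucose. It was measured at a TPM of 165 and 196 for WT against 136 and 139 for Kdm3b+/-. The Kdm3b+/- mice were close to each other and below both WT mice, with means of 138 ± 1.77 against 181 ± 21.7 (SD, n = 2 per group) and a ratio of 0.762. Its log2 fold change was -0.38 ± 0.14 (SE; 95% confidence interval -0.69 to -0.08), with an unadjusted limma p of 0.0199 and an adjusted p of 0.226. Glut1 is also made in astrocytes. The summed TPM of 6 astrocyte markers was 3952 and 3169 in WT and 2668 and 2570 in Kdm3b+/- animals. Most of this sum came from Aldoc (named after its values were seen), at 3146 and 2468 in WT against 2134 and 1824 in Kdm3b+/-. WT mouse 1, which stood apart in the Purkinje cell markers, was also the highest library in this sum and in Aldoc. Whether this sum and that of the Purkinje cell markers are linked was not tested. Of the 6 markers, 4 were lower in both Kdm3b+/- mice without overlap, against 32% of all tested genes. The part of astrocyte RNA in the Slc2a1 values was not tested.

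Abcb1a (chr5:8660092-8748570, plus strand) encodes P-glycoprotein, the efflux pump that keeps many drugs out of the brain. Its TPM was 5.43 and 6.09 for the WT pair and 5.20 and 5.53 for the Kdm3b+/- pair, and the groups overlapped. The log2 fold change of -0.09 ± 0.17 (SE) had a 95% confidence interval of -0.47 to 0.30, so that a change of the size measured for Slco1a4 lay outside the interval (limma adjusted p = 0.823). Its direction turned under quantile normalization, where the log2 fold change was 0.014.

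Both transporters of organic compounds have close relatives with which reads may be shared. The coding sequence of Slco1a4 had 89.4% identical bases with Slco1a5, 86.7% with Slco1a1 and 85.0% with Slco1a6 in the GENCODE annotation. Slco1a5 had a TPM between 0.0671 and 0.121 in the 4 libraries, while Slco1a1 and Slco1a6 were listed at 0 in all of them. Abcb1a had 87.7% identity with Abcb1b, whose TPM was between 0.212 and 0.484. These assigned levels were small beside those of Slco1a4 and Abcb1a in each library. They depend on how shared reads were divided between the relatives, which could not be checked here.

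Of the 3 genes for junctions and adhesion, Pecam1 was lower in both Kdm3b+/- mice, Cdh5 was higher in both and Cldn5 overlapped between the genotypes. Cldn5 (chr16:18776847-18778262, plus strand) encodes claudin-5, the main sealing protein of the tight junctions of brain endothelium. Its TPM was 70.4 and 72.8 for WT against 71.9 and 95.1 for Kdm3b+/-. Only Kdm3b+/- mouse 2 was above the others, and the means were 71.6 ± 1.72 and 83.5 ± 16.4 (SD, n = 2 per group). The log2 fold change was 0.21 ± 0.16 (SE; 95% confidence interval -0.16 to 0.57; limma adjusted p = 0.528) and became 0.01 without Kdm3b+/- mouse 2.

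Pecam1 (chr11:106654213-106715281, minus strand) encodes the adhesion molecule CD31 at endothelial cell contacts, which is also carried by platelets and leukocytes. Its TPM was 6.20 and 7.89 in WT and 3.53 and 5.92 in Kdm3b+/- animals. The groups did not overlap, although the nearest mice of the genotypes were closer to each other than the Kdm3b+/- mice were among themselves, and the means were 7.04 ± 1.19 and 4.72 ± 1.69 (SD, n = 2 per group). The log2 fold change of -0.51 ± 0.23 (SE) had an unadjusted limma p of 0.0511 and an adjusted p of 0.296, and ranged from -0.82 to -0.21 with single libraries left out. Of 6 leukocyte genes 3 were tested. S100a8 and S100a9, which neutrophils carry at a high level, were DEX and lower in Kdm3b+/- mice, against 0.344% of all tested genes. S100a8 had a TPM of 4.68 and 5.25 for the WT pair and 0.973 and 0.757 for the Kdm3b+/- pair, with a log2 fold change of -1.68 ± 0.19 (SE; adjusted p = 0.0116). For S100a9 the log2 fold change was -1.81 ± 0.22 (SE; adjusted p = 0.0133). Without WT mouse 1 or WT mouse 2 the adjusted p was 0.0694 or 0.0723 for S100a8 and 0.0778 or 0.0795 for S100a9. The other 4 leukocyte genes had higher means in Kdm3b+/- mice. Named after their values were seen, Ptprc, the common leukocyte antigen, had a TPM of 0.507 and 0.725 for WT against 0.854 and 0.755 for Kdm3b+/-, and Plac8 was listed at 0 and 0.235 for WT against 0.629 and 1.2 for Kdm3b+/-. The leukocyte list thus had values in both directions. The part of leukocyte RNA in the Pecam1 values was not tested.

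Cdh5 (chr8:104101625-104144502, plus strand) encodes VE-cadherin, the adhesion protein of the junctions between endothelial cells. Its TPM was 0.578 and 0.497 for WT against 0.735 and 0.755 for Kdm3b+/-. Both Kdm3b+/- mice were above both WT mice, at a mean exon coverage of only 1.23 to 2.31 reads per base, and it was left out of the test by the minimum TPM. Without that minimum its log2 fold change was 0.18 ± 0.10 (SE; limma adjusted p = 0.488). The predicted gene Gm29682 overlaps Cdh5 on the opposite strand and was listed at 0 in all 4 libraries.

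The receptors for VEGF and the angiopoietins showed no difference beyond the spread between mice. Flt1 (chr5:147562196-147725988, minus strand) encodes VEGF receptor 1, which binds VEGF strongly and limits its action. It had a TPM of 5.40 and 7.99 in WT and 5.35 and 6.37 in Kdm3b+/- animals. The groups overlapped, and the log2 fold change was -0.15 ± 0.21 (SE; 95% confidence interval -0.61 to 0.32; limma adjusted p = 0.741).

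Kdr (chr5:75933270-75978428, minus strand) encodes VEGF receptor 2, the receptor that passes on most of the VEGF signal. Its TPM was 1.02 and 1.44 for the WT pair and 0.993 and 1.89 for the Kdm3b+/- pair, which were thus the lowest and the highest of the 4 libraries. A log2 fold change of 0.11 ± 0.24 (SE; limma adjusted p = 0.833) was obtained. Tek (chr4:94739289-94874976, plus strand) encodes Tie2, the receptor of the angiopoietins. It was measured at 2.62 and 3.86 for WT against 3.24 and 3.67 for Kdm3b+/-, both of which lay between the WT mice, and its log2 fold change was 0.09 ± 0.20 (SE; limma adjusted p = 0.857). For Flt1, Kdr and Tek, the direction depended on which mouse was included: the values ranged from -0.39 to 0.10, from -0.16 to 0.38 and from -0.13 to 0.30 with single libraries left out.

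Ly6c1 (chr15:75044018-75048837, minus strand) encodes a surface protein anchored to the membrane of brain endothelial cells and of some leukocytes. It was the highest or second highest of the 10 genes, with a TPM of 197 and 144 in WT and 187 and 157 in Kdm3b+/- animals. The Kdm3b+/- values lay between the WT values, and the log2 fold change was 0.03 ± 0.17 (SE; 95% confidence interval -0.36 to 0.42; limma adjusted p = 0.942), with a range of -0.19 to 0.26 when single libraries were left out. Its relative Ly6c2, a marker of monocytes with 79.9% identity to Ly6c1 in the coding sequence, was listed at 0 in both WT mice and in Kdm3b+/- mouse 2 and at a TPM of 10.6 in Kdm3b+/- mouse 1. The sum of both genes was 197 and 144 for the WT pair and 198 and 157 for the Kdm3b+/- pair. Assigned reads of Ly6c2 were therefore seen in 1 library only, and how reads were divided between these genes is uncertain.

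In all, 3 of the 9 tested genes (33.3%), Slco1a4, Slc2a1 and Pecam1, were lower in both Kdm3b+/- mice than in both WT mice. Among all tested genes, the groups did not overlap with lower values in Kdm3b+/- mice in 32% (with higher values in 19.2%, and in either direction in 51.3%), so the count for the endothelial genes was near the background. After median-ratio scaling 3 endothelial genes were counted and the background was 25.3%. Without WT mouse 1 or without Kdm3b+/- mouse 2, 6 endothelial genes had no overlap in this direction, against 51.8% and 48.2% of all genes. Of the 9 endothelial genes, 2 (Slco1a4 and Slc2a1) had an unadjusted p under 0.05 with a lower value, against 11.5% of all tested genes, and no endothelial gene had one with a higher value, against 5.47%. For 7 of the 10 genes the gap between mice of one genotype was larger than the difference between the genotype means. With 2 mice against 2 an exact permutation test of a single gene cannot give a two-sided p below 0.333.

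**Figure D2:**
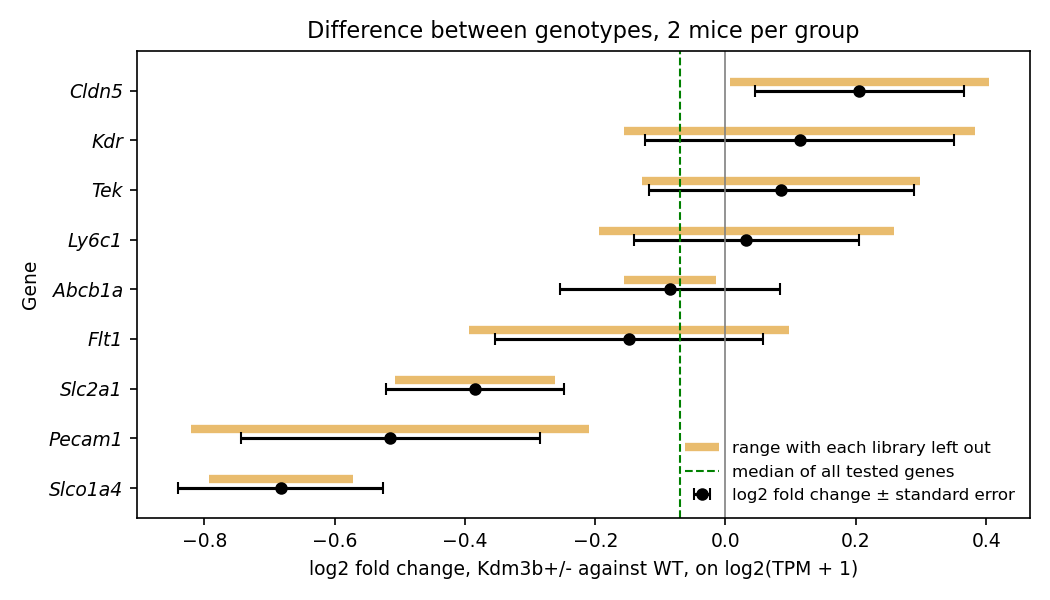
Log2 fold change of each tested endothelial gene in Kdm3b+/- against WT mice on the log2(TPM + 1) scale (points) with its standard error (bars), and the range of values obtained when each library was left out in turn (orange bands). Slco1a4, Pecam1 and Slc2a1 stay below 0 throughout, from -0.68 for Slco1a4 to -0.38 for Slc2a1, Abcb1a and Cldn5 come close to 0 on either side, and the bands of Flt1, Kdr, Tek and Ly6c1 cross 0. The dashed line marks the median of all tested genes at -0.07.

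Ratios between genes of the same library do not depend on a constant factor by which the whole library is scaled. The ratio of Slco1a4 to Cldn5 in TPM was 0.441 and 0.489 for WT against 0.261 and 0.232 for Kdm3b+/-. Relative to Abcb1a, Slco1a4 was at 5.72 and 5.84 in WT and 3.61 and 3.98 in Kdm3b+/- animals. Relative to both genes, Slco1a4 was lower in both Kdm3b+/- mice. It had the lowest log2 fold change of the tested endothelial genes, while Cldn5 had the highest and Abcb1a overlapped. These ratios therefore repeat the difference of Slco1a4 itself and are no separate support for it. The ratio of Slc2a1 to Cldn5 was 2.35 and 2.69 for the WT pair and 1.90 and 1.46 for the Kdm3b+/- pair. For Pecam1 to Cldn5 it was 0.0881 and 0.108 for WT against 0.0491 and 0.0622 for Kdm3b+/-. The genotypes did not overlap in these 4 ratios, whereas Ly6c1 to Cldn5 overlapped, at 2.80 and 1.97 in WT and 2.61 and 1.66 in Kdm3b+/- animals. The ratios were formed after the single genes had been seen and were not tested. Slc2a1 and Pecam1 were likewise lower without overlap before they were set against Cldn5.

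**Figure D3:**
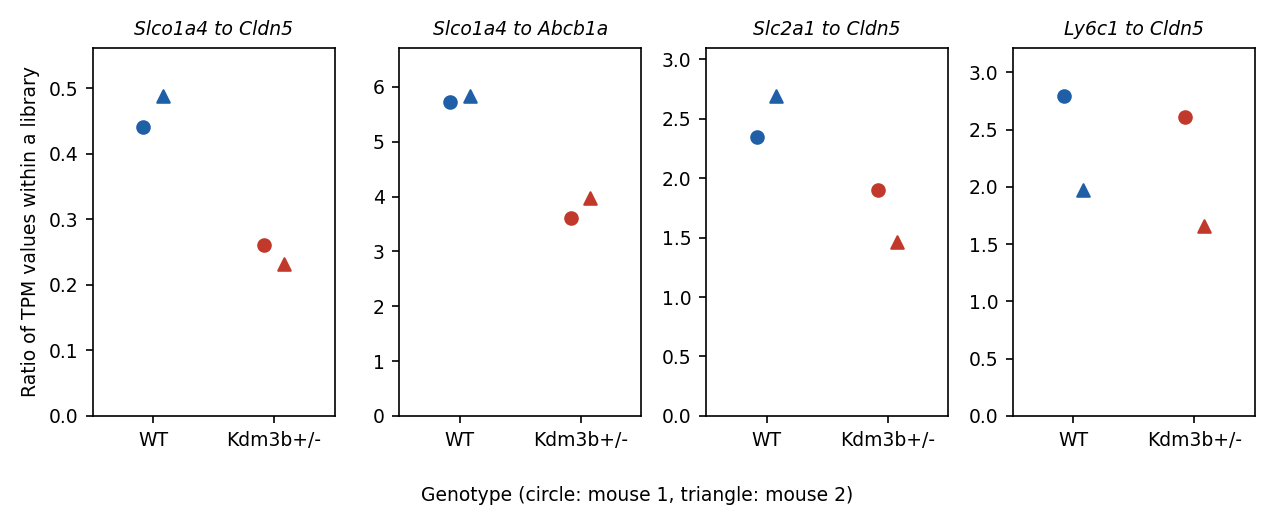
Ratio of TPM values within each library for 4 pairs of endothelial genes, with WT mice in blue and Kdm3b+/- mice in red and each axis starting at 0. The ratios of Slco1a4 to Cldn5, Slco1a4 to Abcb1a and Slc2a1 to Cldn5 are lower in both Kdm3b+/- mice, and the ratio of Ly6c1 to Cldn5 differs more between the mice of a genotype than between genotypes.

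The 250 bases before the start site are shown for 3 of the tested genes with a promoter window. Slco1a4 and Slc2a1 had the lowest log2 fold changes among these genes and Cldn5 the highest. Pecam1, which at -0.51 lay between Slco1a4 and Slc2a1, had no window. The sequences are from RefSeq on GRCm38.p6, are written 5′ to 3′ on the strand of the gene, and carry CpG dinucleotides in capitals. They lie at chr6:141856221-141856470 for Slco1a4, chr4:119108495-119108744 for Slc2a1 and chr16:18776597-18776846 for Cldn5.
Slco1a4: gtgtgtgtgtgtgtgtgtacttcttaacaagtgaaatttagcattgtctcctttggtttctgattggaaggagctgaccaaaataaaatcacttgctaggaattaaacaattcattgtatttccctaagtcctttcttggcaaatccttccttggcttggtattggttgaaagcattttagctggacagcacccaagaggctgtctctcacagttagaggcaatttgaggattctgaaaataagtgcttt
Slc2a1: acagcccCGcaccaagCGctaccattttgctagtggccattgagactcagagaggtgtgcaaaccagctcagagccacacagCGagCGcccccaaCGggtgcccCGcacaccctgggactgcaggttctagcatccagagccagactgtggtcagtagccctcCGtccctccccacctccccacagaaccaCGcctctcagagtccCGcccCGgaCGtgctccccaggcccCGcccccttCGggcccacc
Cldn5: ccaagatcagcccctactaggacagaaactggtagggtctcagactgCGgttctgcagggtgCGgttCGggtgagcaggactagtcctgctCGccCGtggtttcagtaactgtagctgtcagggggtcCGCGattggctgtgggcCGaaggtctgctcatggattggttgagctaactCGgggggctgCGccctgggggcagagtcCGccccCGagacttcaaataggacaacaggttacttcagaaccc
The Slco1a4 window had 39.2% G and C and 0 CpG dinucleotides. The Slc2a1 window had 66.4% G and C and 13 CpG dinucleotides, and the Cldn5 window had 59.6% and 12. The medians over 32841 promoter windows of the mouse were 52.4% and 6 CpG dinucleotides, so Slco1a4 was below and both others above. Slco1a4 and Slc2a1, which both had lower values in Kdm3b+/- mice, were thus on opposite sides of the median in CpG content.

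Promoter windows were found for 8 of the 10 genes, with 2 windows for Ly6c1, and not for Cdh5 and Pecam1. The receptors Flt1 and Kdr had 23 and 16 CpG dinucleotides, whereas Tek had 2, Abcb1a 0 and the Ly6c1 windows 0 and 1. The Abcb1a window lies 93.0 kb upstream of the start given in the deposited tables. The letters GGAAGT, the core of many sites for ETS factors, were searched on both strands (reverse complement ACTTCC) and were present in 3 of the 9 windows, those of Flt1, Kdr and 1 of Ly6c1, against 19.7% of all windows. The letters CTTTGA of the TCF/LEF factors (reverse complement TCAAAG) were present in the Abcb1a window only, against 13.8% of all windows.

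Over the 9 tested genes, the median deviation of log2(TPM + 1) from the mean of the 4 libraries was -0.03 and 0.17 for WT mice 1 and 2 and -0.18 and 0.03 for Kdm3b+/- mice 1 and 2. Among the 115 other tested vessel genes, the profiles nearest to it were those of Cspg4, Ocln and Lamc1, with root mean square differences of 0.0197, 0.0321 and 0.0349 over the 4 libraries. Cspg4 encodes the proteoglycan NG2 of pericytes, Ocln the tight junction protein occludin and Lamc1 a laminin chain of the basement membrane. In the median, mouse 2 of each genotype was above mouse 1. The 3 genes share this because they were picked as nearest to the median, so it is no separate observation. The aligned sequence was also greater in mouse 2, at 5.74 against 4.92 gigabases in WT and 6.69 against 5.69 in Kdm3b+/- mice, and its part in this profile was not tested. The TPM of Ocln, for example, was 21.7 and 26.1 for the WT pair and 20.2 and 22.5 for the Kdm3b+/- pair.

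Other genes of the vessel wall and the barrier were described from 11 lists with 142 genes, of which 115 were tested and none was DEX in limma. The unadjusted p was under 0.05 for 13 higher and 6 lower genes, 16.5% of the 115 against 17% of all tested genes. By direction, 11.3% of the vessel genes were higher and 5.22% lower at this p, against 5.47% higher and 11.5% lower among all tested genes. The groups did not overlap for 26 genes in each direction (22.6%), against 19.2% higher and 32% lower among all genes. These background shares depend on the scale: after median-ratio scaling they were 25.2% higher and 25.3% lower. The vessel genes and the lists below were counted on the TPM scale only. Their median log2 fold change was -0.04.

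The 12 other tight junction genes had a median of -0.13, and the highest was Cgnl1, which codes for paracingulin, at 0.49. Cgnl1 had a TPM of 6.90 and 7.14 for WT against 10.1 and 10.4 for Kdm3b+/- (limma adjusted p = 0.199). Of these genes, 4 were lower and 1 higher without overlap, against 32% and 19.2% of all tested genes. Of 18 tested transporters other than the 3 above, 6 were lower and 3 higher without overlap, against the same shares. Their median was -0.12. The extremes were the amino acid transporters Slc7a5 at -0.58 ± 0.21 and Slc38a5 at 0.81 ± 0.18 (SE). Slc38a5 was measured at 6.04 and 4.76 in WT and 9.47 and 11 in Kdm3b+/- animals, with a limma adjusted p of 0.109. This p was between 0.0296 and 0.308 over the alternatives, and 0.0427 with the length and GC correction.

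For ligands and receptors of vessel growth, 9 genes were tested with a median of 0.15, from the ligand Angpt1 at -0.32 to the VEGF co-receptor Nrp1 at 0.40. Of these, 4 were higher and 1 lower without overlap, against 19.2% and 32% of all tested genes. In the Wnt pathway of the barrier, 14 genes were tested with a median of -0.11. The lowest was the feedback inhibitor Nkd1 at -0.63 ± 0.20 (SE; limma adjusted p = 0.196) and the highest the endothelial transcription factor Sox17 at 0.21. In this list 6 genes were lower and 2 higher without overlap, against 32% and 19.2% of all tested genes. None of these genes passed the test.

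Among 29 tested endothelial markers from a wider list, 8 were higher and 4 lower without overlap, against 19.2% and 32% of all tested genes. Their median was -0.06. Itm2a, a membrane protein gene of brain endothelium, had a TPM of 116 and 128 for the WT pair and 201 and 198 for the Kdm3b+/- pair. Its log2 fold change of 0.71 ± 0.13 (SE) had an adjusted p of 0.0603 in limma, the lowest of the 115 vessel genes, and the adjusted p was 0.0126 to 0.223 over the alternatives, 0.0350 with robust eBayes among them. Robo4, a receptor that stabilizes vessels, was the lowest at -0.53 ± 0.25 (SE; adjusted p = 0.317). Endothelial genes thus had values on both sides of 0 within the same libraries.

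The 7 caveolar genes ranged from Cavin2 at -0.40 to Cavin3 at 0.51, with a median of 0.00. In each direction 2 genes were without overlap, against 19.2% higher and 32% lower among all tested genes. The 4 tested arterial genes ranged from the Notch ligand Dll4 at -0.56 to Gkn3 at 1.25 ± 0.27 (SE; limma adjusted p = 0.105). Gkn3 had a TPM of 0.643 and 1.88 for WT against 4.65 and 3.72 for Kdm3b+/-, and its adjusted p was 0.0134 without Kdm3b+/- mouse 2 and between 0.0134 and 0.312 over the alternatives. The 6 venous genes had a median of -0.02, from Vwf at -0.18 to Slc38a5. In the vessel wall outside the endothelium, 9 pericyte genes ranged from Des at -0.32 to Higd1b at 0.75 ± 0.16 (SE; limma adjusted p = 0.103) with a median of 0.06. The 3 tested smooth muscle genes lay between -0.25 for Acta2 and 0.10 for Myl9, and 6 basement membrane genes between -0.19 for Lamb2 and 0.15 for Nid1. The 7 tested fibroblast genes, which are not part of the 11 lists, had a median of -0.10.

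**Figure D4:**
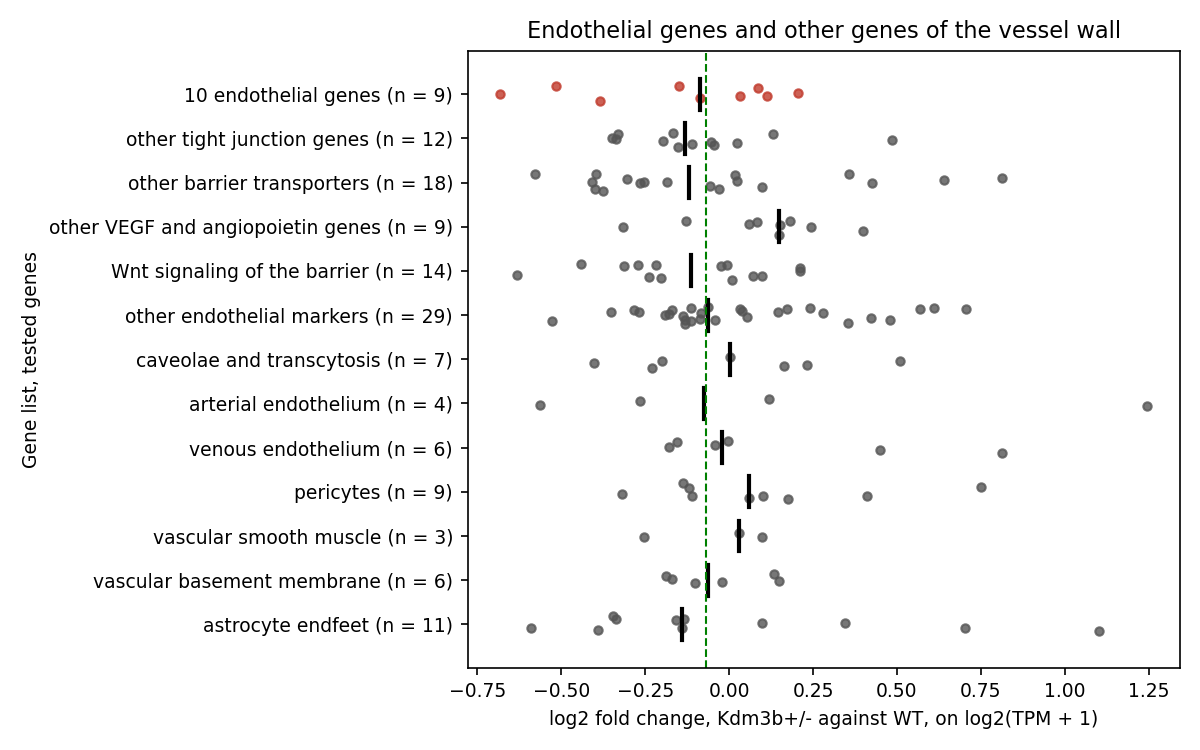
Log2 fold change of every tested gene (points, on the log2(TPM + 1) scale) for the 10 endothelial genes and for lists of other vessel and barrier genes and of astrocyte endfeet, with a short line at the median of each list and a dashed line at the median of all tested genes (-0.07). The medians lie between -0.14 for the endfeet and 0.15 for the VEGF and angiopoietin genes, and the lists spread to both sides of 0.

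The endfeet of astrocytes surround the vessels, and 1 of their 11 tested genes was DEX, against 0.461% of all tested genes. Aqp4, the water channel of the endfeet, had a TPM of 59.2 and 82.3 in WT and 150 and 152 in Kdm3b+/- animals. The log2 fold change was 1.10 ± 0.17 (SE; limma adjusted p = 0.0329), and the adjusted p was 0.0723 without WT mouse 1 and 0.0802 without a trend in eBayes (range over the alternatives 0.0024 to 0.240). The lowest endfoot gene was Gjb6, a connexin, at -0.59 ± 0.14 (SE; adjusted p = 0.126), and 6 endfoot genes were lower and 3 higher without overlap, against 32% and 19.2% of all tested genes. Aqp4 was thus higher in the same libraries in which all 6 astrocyte markers had lower means.

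Markers of other cells that share a sample with vessels were measured in the same libraries. The summed TPM of 6 red cell genes was 1143 to 1765 in the WT mice and 1353 to 1928 in the Kdm3b+/- mice, which overlap. Of the 5 tested, 3 were higher and 1 lower without overlap, against 19.2% and 32% of all tested genes. Their median log2 fold change was 0.41. The lower one, Hbb-bs (named after its values were seen), had a TPM of 505.8 and 8.08 for WT against 0.00768 and 0.142 for Kdm3b+/-, and reads may be shared with its close relative Hbb-bt. Without Hbb-bs the sums were 1259 and 1134 for WT against 1928 and 1353 for Kdm3b+/- and did not overlap. Hbb-bs was left out after its values were seen, and this lowers almost only the sum of WT mouse 1. If reads are shared with Hbb-bt, the lack of overlap may come from this removal, so no difference in red cell RNA is read from it. Microglial genes summed to 179 to 183 and 182 to 202, and 2 tested genes of perivascular macrophages had log2 fold changes of 0.22 and 0.25. The 10 genes of choroid plexus and ependyma, of which 4 were tested, summed to 40.4 and 41.6 for the WT pair and 50.6 and 45.3 for the Kdm3b+/- pair. Named after their values were seen, Otx2 made up the greater part and Foxj1 went the other way. Otx2 overlapped, at 24.9 and 28.7 for WT against 30.4 and 27 for Kdm3b+/-. Foxj1, which was not tested, had 1.10 and 1.28 for WT against 0.471 and 0.517 for Kdm3b+/-. Also named after their values were seen, Ttr, Folr1, Kl, Kcne2 and Aqp1 each had a mean TPM under 1 and were not tested. The sum therefore rests mainly on Otx2 and is no measure of choroid plexus RNA. Of the 4 tested, 2 were higher without overlap, against 19.2% of all tested genes, and 1 had a lower mean. Among 6 oligodendrocyte genes, only Mobp was DEX and lower, against 0.344% of all tested genes. Mobp had a TPM of 925 and 893 for WT against 471 and 482 for Kdm3b+/- (log2 fold change -0.93 ± 0.11, SE; limma adjusted p = 0.0133). Without WT mouse 1 or WT mouse 2 its adjusted p was 0.0694 or 0.0711. The part of these cells in the values of the endothelial genes was not tested.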

How the data were processed

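RNA of GCE tissue was sequenced from 2 WT and 2 Kdm3b+/- mice, grouped by the genotype in the labels. Reads were trimmed, aligned with STAR and quantified with StringTie by the authors. The deposited tables hold 3 values per gene. The coverage signal deposited for a gene is its unscaled read depth averaged over exons. For FPKM the authors divided by transcript length and mapped fragments. For TPM the authors divided by length and set each library to the same total. The genome build, the annotation and the tool versions are not given in the sources used here. Compared with RefSeq on GRCm38, 99.5% of the gene numbers shared the chromosome and 89.9% started less than 1 kb apart. Symbols were found for 24462 of 24532 gene numbers, and entries of the same number (143 numbers in the table of WT mouse 1) were summed. Abundance was estimated on transcripts, so read counts and counting intervals were not computed, and aligned bases were taken from the most frequent ratio of coverage to FPKM, held by 67.8% to 68.3% of the entries.

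A mean TPM of 1 or more was required for testing. The model was fitted on log2(TPM + 1) by limma version 3.58.1 (lmFit, then eBayes with trend; R version 4.3.3), genotype being the only term, and Benjamini-Hochberg adjustment over 13652 genes. On this scale the change of low genes is understated. Robust fits used statmod version 1.5.0. Tables were made with pandas 2.3.3 and NumPy 2.4.6 in Python 3.11.15, alignments of coding sequences with Biopython 1.88 and figures with Matplotlib 3.10.9. The fit was checked on simulated data. The p-values measure the spread between 2 mice per group, shared across genes.

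The 10 genes and all lists were chosen with earlier results of these data known. The text names the 10 genes, their close relatives, Kdm3b and the 3 nearest profiles. It also names the lowest and highest gene of each vessel list and of the endfeet. In the lists of other cell types it names DEX genes and genes marked as named after their values were seen. A gene that this rule names is not reported here. The alternatives were FPKM, another pseudocount (0.1), no filter or a minimum mean TPM of 5, median-ratio and quantile scaling, removal of the 20 genes with the highest TPM, use of 1 entry (the highest) per gene number, eBayes without trend or robust, a correction for length and GC content (loess with a span of 0.5; 94.5% of the tested genes had both), the replicate number as a block, a call by adjusted p alone, and each library left out.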

Additional observations from a re-analysis of the deposited data

How the results depend on the processing

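Of 151 values of the tested endothelial genes under 17 alternatives, 144 kept their direction. Abcb1a turned to 0.014 under quantile normalization. With single libraries left out, the ranges were -0.39 to 0.10 for Flt1, -0.16 to 0.38 for Kdr, -0.13 to 0.30 for Tek, -0.19 to 0.26 for Ly6c1, -0.20 to 0.62 for Sox17, -0.59 to 0.087 for Acta2 and -0.020 to 0.22 for Myl9. The number of DEX genes among all genes was 38 with FPKM (12 higher, 26 lower), 37 without a trend in eBayes, 1 without a filter (lower in Kdm3b+/- mice), and 21 to 188 with single libraries left out. The number of endothelial genes lower without overlap was 3 to 6 with single libraries left out. The cause of these differences was not tested.

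Same-numbered mice are different animals, and their deviations had a correlation of 0.121 across genes (0.0764 after the length and GC correction), so that the numbers were not taken as pairs. With the replicate number as a block, 600 genes were DEX (173 higher, 427 lower), and 272 with the block and the length and GC correction (130 higher, 142 lower). In both fits 1 endothelial gene, Slco1a4, was DEX, with an adjusted p of 0.0250 and 0.0440 in limma. Over all alternatives its adjusted p was 0.0250 to 0.569. Every scaling moved the median of all genes by less than 0.1 on the log2 scale, at most by 0.08. With 2 mice per group, differences smaller than the distance from a value to the end of its confidence interval could not be told from 0. This holds before any adjustment. For genes at low coverage, such as Cdh5 and Kdr, the change is also understated on the log2(TPM + 1) scale.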
